A study of Homo sapiens with 6 samples.

Results

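Oxidative phosphorylation is the final step of aerobic energy production, and its nuclear-encoded genes are described here in a human breast cancer line depleted of the transcription factor SOX4. Members were all genes on the array whose symbol begins with NDUFA, NDUFB, NDUFC, NDUFS, NDUFV, UQCR, COX4 to COX8 or ATP5, together with SDHA, SDHB, SDHC, SDHD, CYC1, CYCS and C15orf48. This gave 94 of the 31426 gene symbols on the chip, and 108 of their probes were kept for testing among the chip's 47322. The set holds 37 subunits of complex I, 4 of complex II, 8 of complex III, 17 of complex IV and 15 of complex V. It also holds 3 complex I assembly factors whose symbols begin with NDUFAF, cytochrome c, and the 3 paralogs NDUFA4, NDUFA4L2 and C15orf48. A further 6 genes or pseudogenes match by the start of their symbol and were not counted as subunits. Of the 94, 84 were measured well enough to be tested and 10 were not.

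Total RNA of MDA-MB-231 cells, a mesenchymal triple-negative breast cancer line, was measured on Illumina HumanHT-12 v4 arrays. Cells of 3 samples carried a short hairpin RNA (shRNA) against SOX4, and cells of 3 samples carried a scrambled shRNA, which is the control. Both groups were grown in DMEM with Glutamax, serum and antibiotics, and both had been transduced, so transduction itself is common to them. By the labels, a single hairpin in a single line stands for SOX4 depletion, and the labels name no separate cultures, so a p-value reflects how far these samples vary, which may be no more than technical variation.

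The respiratory chain lies in the inner mitochondrial membrane. Complexes I and II pass electrons from NADH and succinate to coenzyme Q, complex III passes them on to cytochrome c, and complex IV, cytochrome c oxidase, hands them to oxygen, while complex V uses the resulting proton gradient to make ATP. NDUFA4 was first counted as a subunit of complex I and is now placed in complex IV. C15orf48, also called NMES1 and MOCCI, encodes a paralog of NDUFA4 that can take its place in complex IV in inflamed or immune-activated cells, and its transcript also hosts a microRNA, miR-147b. The core catalytic subunits of several complexes are encoded by the mitochondrial genome. None of the 26 symbols sought for them is on the chip, so nothing is measured here about those subunits.

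The upstream sequences of C15orf48 and NDUFA4 and the mature microRNA are shown because C15orf48 has the widest difference of the set and NDUFA4 is the paralog it can replace. Sequences are from RefSeq, GRCh38.p14. The C15orf48 upstream bases are at chr15:45430360-45430609 on the plus strand, those of NDUFA4 at chr7:10940154-10940403 on the minus strand, and hsa-miR-147b-3p at chr15:45433098-45433118 on the plus strand, within the span of C15orf48. Capitals mark TATA motif matches in the C15orf48 sequence and the seed, bases 2 to 8, in the microRNA.
C15orf48 upstream: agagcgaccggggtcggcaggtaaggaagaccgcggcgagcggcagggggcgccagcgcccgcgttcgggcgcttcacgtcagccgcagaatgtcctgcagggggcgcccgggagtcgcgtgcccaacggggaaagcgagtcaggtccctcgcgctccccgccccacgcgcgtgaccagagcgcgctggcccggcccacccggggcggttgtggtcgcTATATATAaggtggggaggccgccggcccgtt
NDUFA4 upstream: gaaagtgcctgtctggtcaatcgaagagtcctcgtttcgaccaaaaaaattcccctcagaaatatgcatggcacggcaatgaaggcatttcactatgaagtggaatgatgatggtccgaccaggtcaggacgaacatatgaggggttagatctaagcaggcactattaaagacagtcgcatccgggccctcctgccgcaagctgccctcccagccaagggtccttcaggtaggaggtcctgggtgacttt
hsa-miR-147b-3p: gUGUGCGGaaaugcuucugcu

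The capitals in the C15orf48 sequence run from 32 to 25 bases before the annotated start. They hold overlapping matches to TATATA, a motif that reads the same on both strands. The 250 bases of C15orf48 were 73.6% G or C with 36 CpG dinucleotides, and those of NDUFA4 were 51.6% G or C with 9. NDUFA4 held no match to any motif searched in its 250 bases. In its own 250 bases C15orf48 held the TATA matches alone, and none to the ETS, NRF1, SOX and NF-kB motifs given below. Of 83 subunit genes (complexes I to V, CYCS and NDUFA4), 68 had a promoter in the RefSeq table. A TATA motif (TATAAA or TATATA, either strand) lay in 8 of these 68 (11.8%) and in 13.3% of all 27305 promoters of the same length. The ETS motif CCGGAAG lay in 16 of 68 (23.5%, against 8.82% of all promoters), and the NRF1 core TGCGCA in 17 of 68 (25%, against 7.05%), both counted on either strand. A SOX motif (ACAATG or ACAAAG, either strand) lay in 11 of 68 (16.2%, against 21.4% of all promoters), and the NF-kB consensus on either strand in 9 (13.2%, against 9.57%). These matches describe letters in a window and were chosen with the expression results known.

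Detection was similar on all arrays. Between 15197 and 16187 probes were detected per array, and array medians of the deposited intensity lay between 119 and 124. The SOX4 transcript was 2.43 lower on the log2 scale with SOX4 shRNA. The mesenchymal genes VIM, CD44, AXL and LGALS1 were detected on all arrays. VIM, AXL and LGALS1 were lower with SOX4 shRNA, with differences of -0.23, -0.31 and -0.33 (limma, adjusted p = 0.00047, 0.00022 and 1.0e-05), and CD44 differed by -0.07 and was not called. The part of these marker differences in the results was not tested. Of the genes low or lacking in this line, CDH1, ESR1 and PGR were not detected on any array, and ERBB2 was detected on all arrays with a difference of 0.02. Of 12 leucocyte, endothelial and fibroblast markers, 8 were undetected throughout, including PTPRC, CDH5 and PDGFRA, and LYZ, PECAM1, COL1A1 and LUM were detected on some arrays, near the detection limit. LUM was detected on 3 SOX4 shRNA arrays and on 0 scrambled arrays. It passed the detection filter through the SOX4 shRNA group alone, so this is a description with no test. The part of LUM in the results was not tested. In bulk RNA, fewer cells expressing a gene and less RNA per cell cannot be told apart.

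C15orf48 was higher with SOX4 shRNA, while its paralog NDUFA4 did not pass the test and NDUFA4L2 was not detected. On the brightest of its 3 probes, ILMN_1805410, the deposited intensity was 2095, 2244 and 2171 on the SOX4 shRNA arrays, against 462, 514 and 451 on the scrambled arrays. The normalized log2 signal was 10.94, 11.04 and 10.94 with SOX4 shRNA, against 8.64, 8.67 and 8.53 with the scrambled shRNA. The groups stood far apart, with little spread within either. The fitted log2 difference of SOX4 shRNA minus scrambled was 2.36 ± 0.07 (SE, n = 3 each), a 5.13-fold change (limma, adjusted p = 1.7e-19). By fitted rise it ranked 11 of the 12451 rows tested, each row being 1 gene symbol or an unnamed probe.

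The other C15orf48 probes were dimmer and moved the same way. ILMN_1654696 read 7.17, 7.24 and 7.09 on the log2 scale with SOX4 shRNA, against 4.81, 5.02 and 5.14 with the scrambled shRNA. It was detected on all SOX4 shRNA arrays and on no scrambled array, so the scrambled level is only a bound, and the rise in C15orf48 by this probe was at least 3.83-fold. ILMN_2389064 read 5.75, 6.02 and 5.58 with SOX4 shRNA, against 4.68, 4.83 and 4.97 with the scrambled shRNA. It too was detected in the SOX4 shRNA group alone, and its bound was at least 1.47-fold. Both dim probes passed the detection filter through the SOX4 shRNA group alone, so they describe the same rise and are no further test of it. Such a bound sets the SOX4 shRNA mean against the lowest detected signal on the scrambled arrays, or the probe's own where that is higher. The authors' own log2 values for C15orf48 were 6.62, 6.76 and 6.62 with SOX4 shRNA, against 4.18, 4.29 and 4.14 with the scrambled shRNA. They are no independent check, since they come from the same arrays and, for members with 1 probe, differ from the values used here mainly by a near-constant amount on the linear scale.

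NDUFA4, the paralog that C15orf48 can replace, had a log2 signal of 11.99 on each SOX4 shRNA array, against 12.14, 12.06 and 12.06 on the scrambled arrays. The groups did not overlap, but the gap was small. The difference was -0.09 ± 0.05 (SE, n = 3 each) with a 95% interval from -0.19 to 0.01 and did not pass the threshold (limma, adjusted p = 0.18). On the deposited scale the mean intensity of NDUFA4 was 4249 ± 30.4 with SOX4 shRNA and 4357 ± 78.6 with the scrambled shRNA (SD, n = 3 each). NDUFA4L2, the hypoxia-associated paralog, was not detected on any of the 6 arrays, so no difference was computed for it.

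Within each array, the C15orf48 signal minus the NDUFA4 signal shows how the pair shifted against each other. Relative to the scrambled mean of this quantity, it was 2.41, 2.52 and 2.42 on the SOX4 shRNA arrays, against -0.02, 0.08 and -0.06 on the scrambled arrays. All SOX4 shRNA arrays lay above all scrambled arrays. The shift was 2.45 ± 0.05 (SE, n = 3 each), equal to a 5.46-fold change of the ratio, with a two-sided exact permutation p of 0.1, the smallest that 3 arrays against 3 allow. The levels of the paralogs themselves are not comparable, because each probe has its own brightness.

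**Figure D1:**
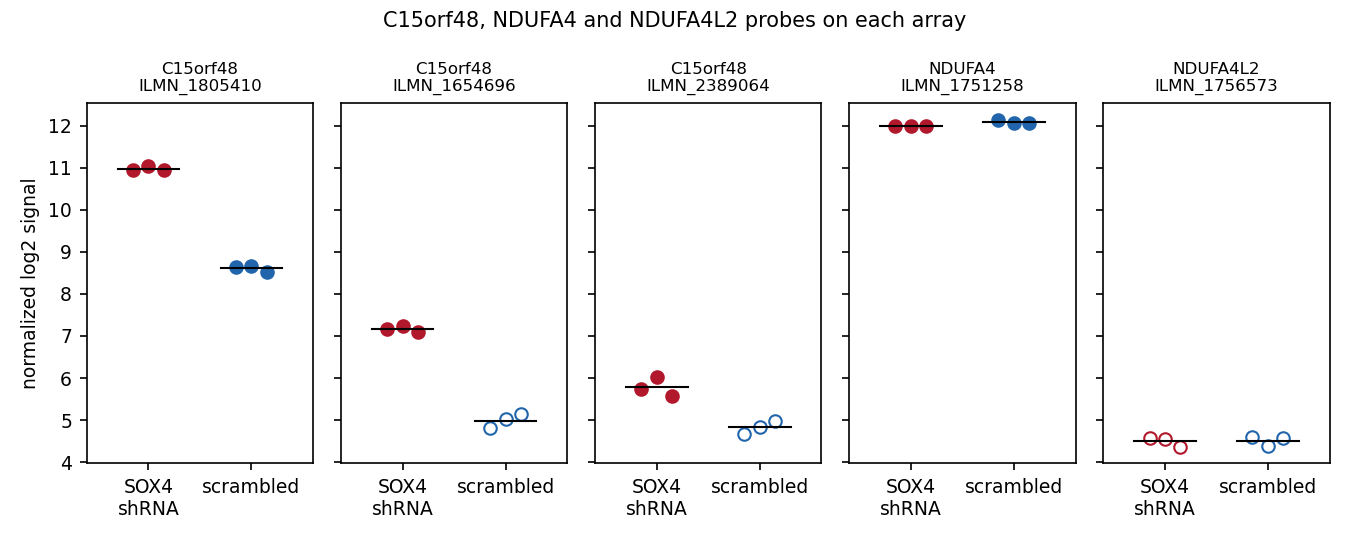
Normalized log2 signal of the 3 C15orf48 probes, the NDUFA4 probe and the NDUFA4L2 probe on each array, SOX4 shRNA in red and scrambled in blue, with bars at group means and open points where the probe was not detected. All C15orf48 probes are higher with SOX4 shRNA (10.97 against 8.61 on average for the brightest), NDUFA4 sits near 12 in both groups and NDUFA4L2 is undetected, and heights are not comparable between probes.

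The subunits around this pair changed little in size. Of the 84 members tested, 14 were higher and 10 lower with SOX4 shRNA, which is 28.6% called, against 30.6 percent of all rows tested. By direction, 16.7% of members were higher, against 15.2 percent of all rows, and 11.9% were lower, against 15.4 percent of all rows. At these settings the members' share is close to the background and is not a result about them. The median difference was 0.01 over the members and -0.01 over all rows. The median size of the difference, sign left aside, was 0.097 over the members and 0.164 over all rows. Members and all rows were not matched for signal level, and the SE was larger for dim CYCS (0.18) than for bright COX5B (0.05). Whether the smaller sizes are particular to these genes was not tested. Aligning array medians without the quantile step gave 20 higher and 9 lower members, and over all rows 2504 higher and 1305 lower, in place of 1891 higher and 1916 lower. Without SOX4 shRNA replicate 1 or without scrambled replicate 1, 9 members were higher. Without the intensity trend in the variance estimate, 5 members were higher and 5 lower (11.9%, against 23.2% of all rows). Without the detection filter 17 of 94 members were called (18.1%, against 8.77% of 34696 rows). Of those 34696 rows 12451 had a probe that passed the filter, and of the 94 members 84 did. These shares therefore rest on unlike backgrounds. The members' share lay below or above that of all rows depending on the setting.

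Only C15orf48 and COX7B2 were called with a fitted fold of 1.5 or more, against 7.28 percent of all rows, and C15orf48 alone passed 2-fold, against 2.25 percent. COX7B2 passed the detection filter through the scrambled group alone, so its fold and its calls are a description. The 23 called members other than C15orf48 had folds from 1.09 to 1.61 with a median of 1.16. The median over all called rows was 1.30, with signal level not matched. In 39 of the 84 members (46.4%) the 3 values of one group lay outside the range of the other, against 42 percent of all rows. Of those 23 called members, 15 stayed past the threshold when any single array was left out, and 8 did so under every other setting tried as well, namely NDUFB2, NDUFB11, NDUFA6, SDHD, COX5B, COX7C, COX7B2 and COX4NB. COX7B2 could not be tested where detection on all 6 arrays was required.

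**Figure D2:**
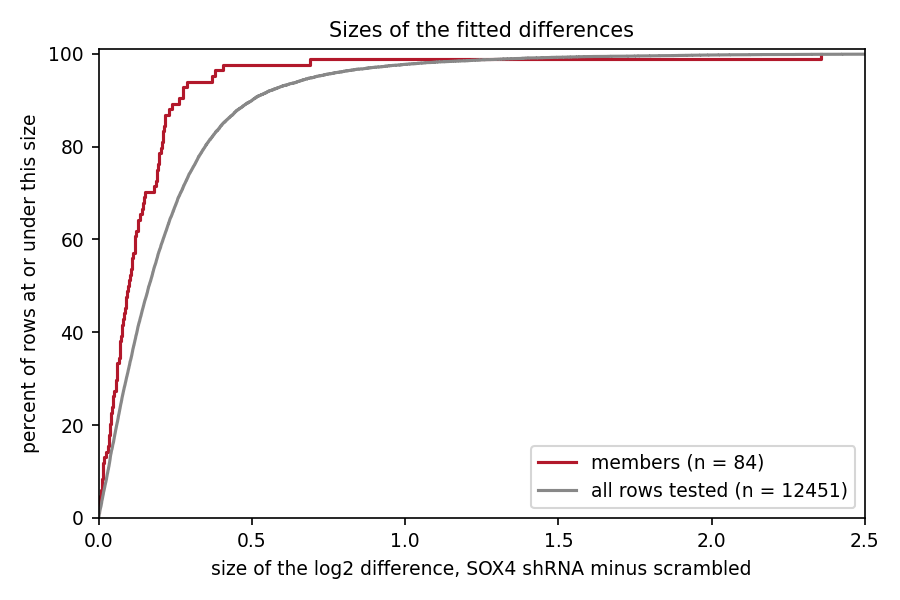
Percent of genes (vertical axis) whose log2 difference is no larger than the size on the horizontal axis, sign left aside, for the 84 members in red and all 12451 rows tested in grey. The red line lies left of the grey one (medians 0.097 and 0.164) except for its last step, C15orf48 at 2.36, and differences above 2.5 are not drawn. Members and all rows are not matched for signal level.

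Complex I, the NADH dehydrogenase, had 34 of its 37 listed subunits tested, with 5 higher, 5 lower and 24 not called (29.4% called, against 30.6 percent of all rows), and a median difference of -0.01. Among the 7 core subunits, which form the catalytic arm, NDUFV2 was the only one called (14.3%, against 30.6 percent of all rows). The NDUFV2 call was lost whichever array was left out (0.13 to 0.15). Its log2 signal was 11.11, 11.08 and 11.10 with SOX4 shRNA, against 10.96, 10.97 and 10.94 with the scrambled shRNA, a difference of 0.14 ± 0.05 (SE, n = 3 each; limma, adjusted p = 0.049). Of the 27 accessory subunits tested, which surround and stabilise the core, 4 were higher and 5 lower (33.3% called, against 30.6 percent of all rows). NDUFA5, NDUFB4 and NDUFS6 were not tested.

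The accessory subunits that rose included 3 of the NDUFB group, which largely builds the part of the membrane arm far from the peripheral arm. NDUFB2 read 12.75, 12.69 and 12.79 with SOX4 shRNA, against 12.38, 12.45 and 12.57 with the scrambled shRNA. The groups did not overlap, and the difference was 0.28 ± 0.05 (SE, n = 3 each; limma, adjusted p = 0.00027). NDUFB3 read 12.36, 12.32 and 12.29 with SOX4 shRNA, against 12.20, 12.10 and 12.03 with the scrambled shRNA, and its 2 probes differed by 0.22 and 0.29, both past the threshold. NDUFB5 read 12.01, 12.14 and 11.98 with SOX4 shRNA, against 11.79, 11.89 and 11.82 with the scrambled shRNA (difference 0.21, limma adjusted p = 0.0042). In NDUFB3 and NDUFB5 the groups also stood apart. NDUFA8, an accessory subunit of the twin CX9C type, was higher by 0.20 (limma, adjusted p = 0.0028).

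Other members of the same groups fell. NDUFA6, an accessory subunit of the LYR family, read 8.59, 8.65 and 8.73 with SOX4 shRNA, against 9.10, 8.98 and 9.03 with the scrambled shRNA. The groups lay apart by more than the spread within either, and the difference was -0.38 ± 0.07 (SE, n = 3 each; limma, adjusted p = 0.0003). NDUFB11 read 11.50, 11.49 and 11.46 with SOX4 shRNA, against 11.69, 11.70 and 11.79 with the scrambled shRNA (difference -0.24, limma adjusted p = 0.00088). NDUFB10 read 11.14, 11.10 and 11.11 with SOX4 shRNA, against 11.24, 11.37 and 11.38 with the scrambled shRNA (difference -0.22, limma adjusted p = 0.0038). Both are membrane arm subunits, so within the 10 NDUFB genes tested 3 were higher and 2 lower (50% called, against 30.6 percent of all rows). NDUFS5, another accessory subunit, was lower by 0.21 on the log2 scale (difference -0.21, limma adjusted p = 0.0017). NDUFA9, which lies near the coenzyme Q site, had a difference of -0.19 (limma, adjusted p = 0.028) and lost its call without SOX4 shRNA replicate 1 or 3 (-0.19 and -0.15) and without scrambled replicate 1 or 2b (-0.18 and -0.17).

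Of the 3 NDUFAF assembly factors, NDUFAF3 alone was called (33.3%, against 30.6 percent of all rows). It read 12.35, 12.28 and 12.26 with SOX4 shRNA, against 12.14, 12.10 and 12.20 with the scrambled shRNA, and the groups did not overlap. The difference was 0.15 (limma, adjusted p = 0.026), and the call was lost without SOX4 shRNA replicate 1, scrambled replicate 1 or scrambled replicate 2a (0.12 to 0.15). A probe listed under its older symbol C3orf60 differed by -0.14 and was not called (limma, adjusted p = 0.61), so the probes of this gene disagree in sign. In the authors' log2 values NDUFAF3 differed by 0.06 and was not called either. Those values were 3.14, 3.06 and 2.83 with SOX4 shRNA, far below the called probe. The symbol's other probes, ILMN_1702120 and ILMN_2275560, were detected on 0 arrays of either group. The authors' values are therefore no second reading of the called probe.

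**Figure D3:**
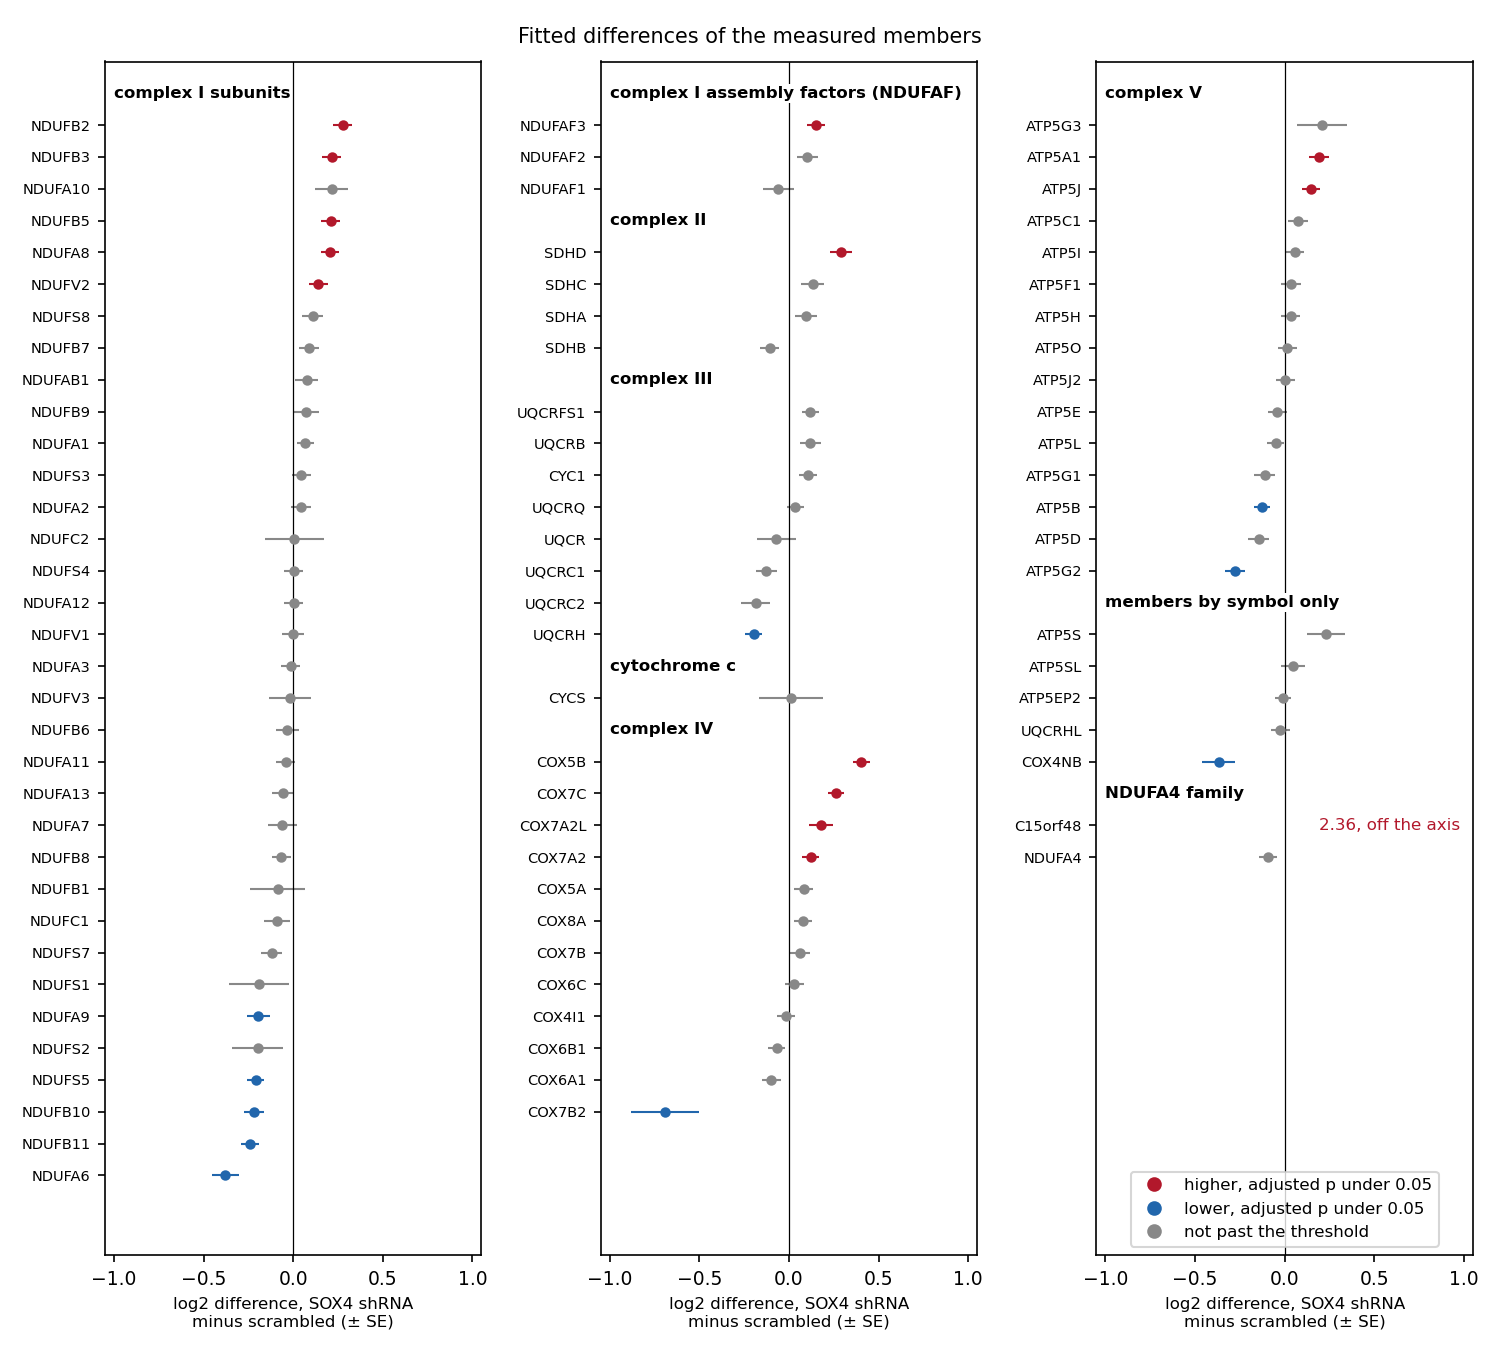
Fitted log2 difference of SOX4 shRNA minus scrambled with its SE for each of the 84 members tested, grouped by complex, with called members in red (higher) and blue (lower). Points scatter on both sides of 0 in complexes I to V, C15orf48 is written as a number because 2.36 lies off the axis, and COX7B2 at -0.69 is the next in size.

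Complex II, succinate dehydrogenase, had all 4 subunits tested and 1 called (25%, against 30.6 percent of all rows). SDHD, one of the membrane anchors, read 10.21, 10.31 and 10.22 with SOX4 shRNA, against 9.98, 9.99 and 9.90 with the scrambled shRNA. The groups stood apart, and the difference was 0.29 ± 0.06 (SE, n = 3 each; limma, adjusted p = 0.00072). SDHC, the other anchor, read 10.30, 10.39 and 10.18 with SOX4 shRNA, against 10.08, 10.20 and 10.19 with the scrambled shRNA. These groups overlapped and the difference of 0.13 was not called (limma, adjusted p = 0.12), though without SOX4 shRNA replicate 3 it was 0.19 and passed. SDHA, the flavoprotein that oxidises succinate, read 10.43, 10.34 and 10.34 with SOX4 shRNA, against 10.31, 10.22 and 10.29 with the scrambled shRNA (difference 0.10, limma adjusted p = 0.25). SDHB, the iron-sulfur subunit, read 11.68, 11.71 and 11.64 with SOX4 shRNA, against 11.69, 11.80 and 11.85 with the scrambled shRNA (difference -0.11, limma adjusted p = 0.14). SDHA values lay apart by a narrow gap and SDHB values overlapped. Aligning array medians also called SDHA at 0.16 and SDHC at 0.20, whereas a second probe gave -0.05 for SDHA and -0.02 for SDHC, and the authors' values gave 0.02 and 0.05, none of them called.

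Complex III, the cytochrome bc1 complex, had 8 of 8 subunits tested, of which 1 was lower and none higher (12.5% called, against 30.6 percent of all rows). UQCRH, the hinge protein that contacts cytochrome c1, read 12.77, 12.89 and 12.89 with SOX4 shRNA, against 13.05, 13.04 and 13.05 with the scrambled shRNA, a difference of -0.20 ± 0.05 (SE, n = 3 each; limma, adjusted p = 0.0028). Its second probe differed by -0.02, as did the probe of UQCRHL, an intronless copy of UQCRH, and the call was lost when probes were averaged (-0.11) and in the authors' values (-0.11). Transcripts of near-identical copies cannot be told apart here, and the fall of UQCRH is uncertain. In 6 of the 8 subunits, differing in either direction, the groups did not overlap (75%, against 42 percent of all rows). UQCRFS1, the Rieske iron-sulfur protein, read 12.75, 12.77 and 12.86 with SOX4 shRNA, against 12.70, 12.62 and 12.70 with the scrambled shRNA (difference 0.12, limma adjusted p = 0.069). UQCRC2, a core protein, read 8.34, 8.19 and 8.30 with SOX4 shRNA, against 8.44, 8.50 and 8.45 with the scrambled shRNA (difference -0.19, limma adjusted p = 0.084).

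CYCS, the somatic cytochrome c that carries electrons between complexes III and IV, read 5.83, 5.60 and 5.42 with SOX4 shRNA, against 5.58, 5.53 and 5.70 with the scrambled shRNA. The groups overlapped fully. The difference was 0.01 ± 0.18 (SE, n = 3 each) with a 95% interval from -0.36 to 0.38. This dim probe does not exclude changes within that interval.

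Complex IV, the enzyme in which NDUFA4 and C15orf48 are placed, had 12 of 17 listed subunits tested, with 4 higher, 1 lower and 7 not called (41.7% called, against 30.6 percent of all rows). The lower subunit, COX7B2, passed the detection filter through the scrambled group alone, so the share that counts it is a description. The median difference was 0.07, and 3 subunits were called without SOX4 shRNA replicate 1 or 3 or without scrambled replicate 2b. COX5B, a subunit on the matrix side, had deposited intensities of 5926, 5883 and 5719 with SOX4 shRNA, against 4192, 4372 and 4315 with the scrambled shRNA. Its log2 signal was 12.50, 12.48 and 12.42 with SOX4 shRNA, against 12.08, 12.03 and 12.07 with the scrambled shRNA. No SOX4 shRNA array came near the scrambled range, and the difference was 0.40 ± 0.05 (SE, n = 3 each), a 1.32-fold change (limma, adjusted p = 5.1e-07). COX7C, a small membrane subunit, read 13.31, 13.32 and 13.34 with SOX4 shRNA, against 13.09, 13.02 and 13.07 with the scrambled shRNA (difference 0.26, limma adjusted p = 8.2e-05).

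The tissue isoforms of complex IV separate into those detected and those not. COX4I1, COX6A1, COX6B1 and COX8A, the forms found in most tissues, were detected on every array and not called, with differences of -0.02, -0.10, -0.07 and 0.08. Their counterparts COX4I2, COX6A2, COX6B2 and COX8C, known from lung, muscle or testis, did not pass the detection filter, and neither did COX7A1 of heart and muscle. COX7A2, the liver-type form, read 13.28, 13.22 and 13.28 with SOX4 shRNA, against 13.17, 13.13 and 13.13 with the scrambled shRNA. COX7A2L, a factor in supercomplex formation, read 10.90, 10.92 and 11.03 with SOX4 shRNA, against 10.89, 10.83 and 10.60 with the scrambled shRNA. Both sets of groups lay apart, the second by a very narrow gap. The differences were 0.12 for COX7A2 (limma, adjusted p = 0.048) and 0.18 for COX7A2L (limma, adjusted p = 0.043). COX7A2 lost its call without any single array except SOX4 shRNA replicate 2 (0.11 to 0.14). COX7A2L lost its call without any SOX4 shRNA array (0.14 to 0.21) and without scrambled replicate 2b, where it fell to 0.09.

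COX7B2, a testis-associated copy of COX7B, had the widest fitted difference after C15orf48 at the settings used, and the size of that difference depends on how background is treated. It read 4.86, 5.24 and 5.17 with SOX4 shRNA, against 5.79, 5.85 and 5.70 with the scrambled shRNA. The groups were apart, but the probe lay at the edge of detection, on 1 SOX4 shRNA array and on 3 scrambled arrays, so it passed the filter through the scrambled group. The difference was -0.69 ± 0.19 (SE, n = 3 each; limma, adjusted p = 0.0064), and the deposited mean intensity was 134 ± 6.50 with SOX4 shRNA and 151 ± 5.67 with the scrambled shRNA (SD). The difference was -0.19 without background correction, smaller than those of COX5B, NDUFA6 and SDHD in any setting, and -1.29 in the authors' values. COX7B itself differed by 0.06 and was not called.

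Complex V, ATP synthase, had 15 of 15 listed subunits tested, with 2 higher, 2 lower and 11 not called (26.7% called, against 30.6 percent of all rows) and a median difference of 0.01. Without scrambled replicate 1, 1 was called, and without SOX4 shRNA replicate 3 or scrambled replicate 2b, 2 were. The catalytic head was split. ATP5A1, its alpha subunit, lay between 12.95 and 13.14 with SOX4 shRNA, against 12.79 to 12.93 with the scrambled shRNA (difference 0.19, limma adjusted p = 0.0088). ATP5B, its catalytic beta subunit, read 13.71, 13.67 and 13.72 with SOX4 shRNA, against 13.85, 13.82 and 13.80 with the scrambled shRNA (difference -0.13, limma adjusted p = 0.031). The groups did not overlap for either gene. The ATP5A1 call was lost without SOX4 shRNA replicate 3 (0.14), scrambled replicate 1 (0.17) or scrambled replicate 2b (0.16). The ATP5B call was lost without SOX4 shRNA replicate 1 or 2 (-0.13 and -0.11) and without scrambled replicate 1 or 2a (-0.11 and -0.13).

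Outside the head, ATP5J, coupling factor 6 of the peripheral stalk, read 12.34, 12.26 and 12.38 with SOX4 shRNA, against 12.16, 12.23 and 12.15 with the scrambled shRNA (difference 0.15, limma adjusted p = 0.03). Its call was lost without SOX4 shRNA replicate 1 or 3 (0.14 and 0.12) and without scrambled replicate 1 or 2b (0.14 and 0.13). ATP5G1, ATP5G2 and ATP5G3 encode the same mature subunit c of the membrane rotor, and ATP5G2 alone was called. ATP5G2 read 11.65, 11.51 and 11.68 with SOX4 shRNA, against 11.98, 11.86 and 11.84 with the scrambled shRNA. The groups stood apart, the difference was -0.28 ± 0.06 (SE, n = 3 each; limma, adjusted p = 0.00054), and a second probe differed by -0.50. ATP5G1 differed by -0.11 (limma, adjusted p = 0.15) and ATP5G3 by 0.21 (limma, adjusted p = 0.28), with overlapping groups in both. In the authors' log2 values ATP5G2 differed by -0.26 and was not called. Those values were 5.67, 5.55 and 5.72 with SOX4 shRNA, far below the brightest probe. Another probe of the symbol, ILMN_1807798, was detected on 0 arrays of either group. The authors' values are therefore no second reading of the brightest probe.

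The 6 members listed by symbol alone were not counted as subunits. COX4NB, now EMC8, a part of the endoplasmic reticulum membrane protein complex, read 7.49, 7.44 and 7.36 with SOX4 shRNA, against 7.87, 7.76 and 7.76 with the scrambled shRNA. The groups did not overlap, and the difference was -0.37 ± 0.09 (SE, n = 3 each; limma, adjusted p = 0.0037). ATP5S, now DMAC2L, differed by 0.23 on its brightest probe, which was not called, and by 0.38 and 0.28 on 2 others, which were. ATP5SL, UQCRHL and the pseudogene ATP5EP2 were not called, and the pseudogene COX6BP1 was not tested.

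Averages over the subunits of a complex differed little between the groups. The mean signal of the 34 complex I subunits, each taken relative to its own mean over the 6 arrays, was -0.01, 0.01 and -0.01 with SOX4 shRNA, against 0.01, 0.00 and 0.00 with the scrambled shRNA. For the 4 complex II subunits it was 0.06, 0.09 and 0.00 with SOX4 shRNA, against -0.08, -0.04 and -0.04 with the scrambled shRNA. For the 12 complex IV subunits it was -0.01, 0.02 and 0.03 with SOX4 shRNA, against 0.00, 0.00 and -0.04 with the scrambled shRNA. The groups overlapped for complexes I, III, IV and V and lay apart for complex II by a narrow gap (0.00 against -0.04). In complex II, SDHD had the widest difference and was the only subunit called. SDHB differed by -0.11, and second probes of SDHA and SDHC, not part of this mean, by -0.05 and -0.02.

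Several members carry more than a single probe, so the same gene was measured again on the same arrays. Of the members, 21 had more than 1 probe kept, with 24 further probes in all. Of the 24, 16 had the sign of the brightest probe. These 16 include the dim C15orf48 probes, which passed the detection filter through the SOX4 shRNA group alone, so the count is a description. The call differed for 5 of the 24. ATP5I, subunit e of the membrane part, differed by 0.06 on its brightest probe and was not called, while another probe differed by -0.42 ± 0.08 (SE, n = 3 each; limma, adjusted p = 0.00012). The remaining 4 belong to UQCRH, ATP5J and ATP5S.

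**Figure D4:**
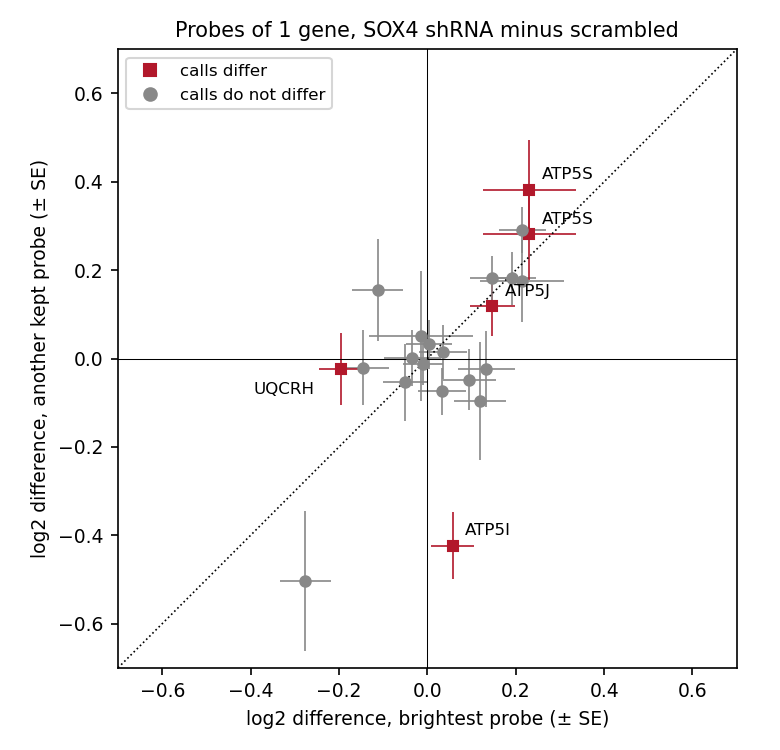
Log2 difference of SOX4 shRNA minus scrambled for the brightest probe (horizontal) and another kept probe of the same member (vertical), with SEs. Squares mark pairs where one probe is called and the other is not. Of the 24 pairs, those of C15orf48 are not drawn because they lie off the axes. The points of ATP5I (0.06 and -0.42) and UQCRH (-0.20 and -0.02) lie off the dotted line of equal values.

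Genes that build, feed or maintain the chain were listed by function beside the members. Of 131 such genes on the chip, 118 were tested, 15 were higher and 24 lower (33.1% called, against 30.6 percent of all rows), and without SOX4 shRNA replicate 2 there were 8 higher. The assembly factors of complex IV gave 3 higher and 3 lower of 22 (27.3% called). FAM36A, now COX20, which handles newly made COX2, read 7.40, 7.59 and 7.56 with SOX4 shRNA, against 8.33, 8.26 and 8.36 with the scrambled shRNA. The groups were far apart, and the difference was -0.80 ± 0.09 (SE, n = 3 each; limma, adjusted p = 1.1e-07). HIGD2A and SURF1 also fell, by differences of -0.34 and -0.22, while COX10 of heme A synthesis, C2orf64 (COA5) and the copper carrier SCO1 rose by 0.31, 0.23 and 0.18.

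Among 13 other complex I assembly genes, OXA1L, the membrane insertase, rose by 0.20 and C7orf44 (COA1) differed by -0.22. Among 12 assembly genes of complexes II, III and V, C6orf125 (UQCC2), needed for cytochrome b, rose by 0.41 ± 0.06 (SE, n = 3 each; limma, adjusted p = 4.9e-06). TMEM70, ATPIF1 and ATPAF1, which act on ATP synthase, were lower, with differences of -0.44, -0.25 and -0.21. OXA1L stands on both lists, of which 15.4% and 41.7% were called, against 30.6 percent of all rows.

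Pyruvate dehydrogenase and the TCA cycle, which supply NADH and succinate, had 1 gene higher and 6 lower of 22 tested (31.8% called, against 30.6 percent of all rows). PDHX, which holds E3 in the pyruvate dehydrogenase complex, rose by 0.47, and fumarase FH, PDK3 and SUCLG1 had differences of -0.35, -0.31 and -0.22. The list of mitochondrial biogenesis and DNA expression had 4 higher and 1 lower of 19 (26.3% called), with ESRRA, a nuclear receptor that drives respiratory genes, at 0.43, SSBP1 at 0.26, C17orf42 (TEFM) at 0.23 and TFB1M at -0.32. Carriers and inner membrane shape had 2 higher and 3 lower of 15 (33.3% called). APOOL rose by 0.46 and APOO had a difference of -0.31, both parts of the cristae-organising MICOS complex. The ADP/ATP carriers SLC25A6 and SLC25A4 differed by 0.28 and -0.26, and PHB2 by -0.19.

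The list of other electron entry and coenzyme Q genes had 3 higher and 7 lower of 16 tested (62.5% called, against 30.6 percent of all rows, and 43.8% lower, against 15.4 percent), with a median difference of -0.15. Of the 7 lower, ADCK4 and COQ4 lay at the detection limit. ADCK4 was kept only through the group where it was higher, so the shares that count it are a description. ETFB, a subunit of the electron transfer flavoprotein, read 9.21, 9.21 and 9.04 with SOX4 shRNA, against 9.86, 9.87 and 9.89 with the scrambled shRNA. The groups lay far apart (difference -0.72 ± 0.07, SE, n = 3 each). ADCK4, now COQ8B, was detected on no SOX4 shRNA array and on 3 scrambled arrays, and was at least 1.31-fold lower with SOX4 shRNA. It passed the detection filter through the scrambled group alone, so this is a description with no test. COQ4 differed by -0.70 but was detected on 1 SOX4 shRNA array and 2 scrambled arrays, with overlapping groups. COQ10B, SQRDL (SQOR) and COQ3 rose by 0.35, 0.33 and 0.22.

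**Figure D5:**
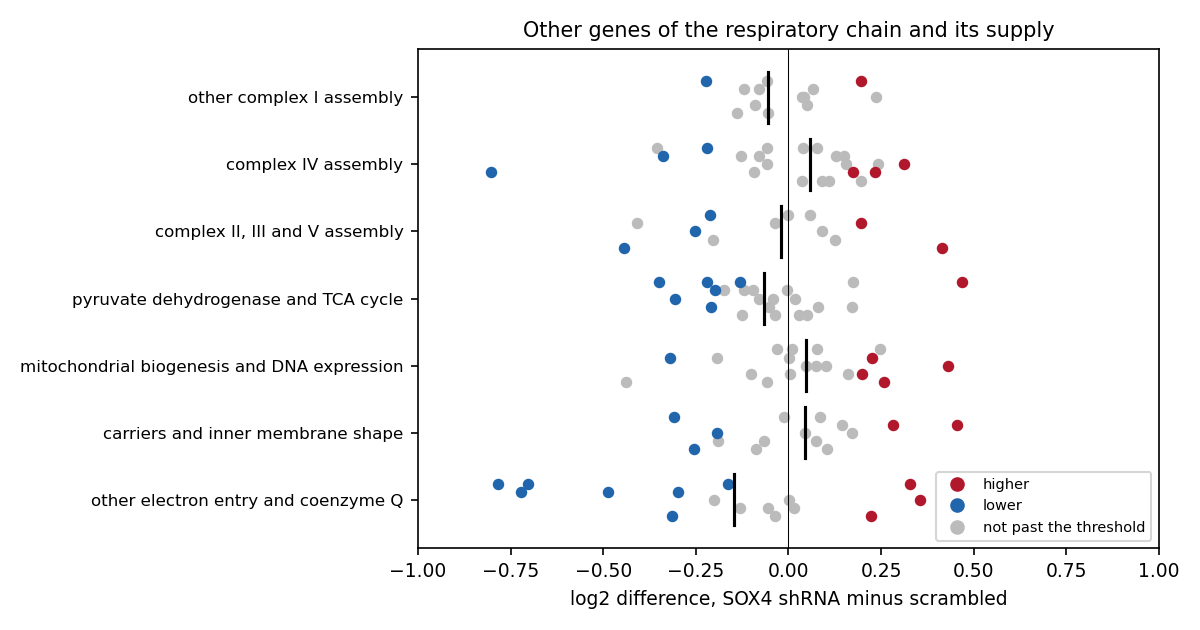
Log2 difference of SOX4 shRNA minus scrambled for each tested gene of 7 functional lists, with called genes in red (higher) and blue (lower) and a black bar at each list's median. Medians run from -0.15 (other electron entry and coenzyme Q) to 0.06 (complex IV assembly), and most lists hold genes on both sides of 0.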

How the data were processed

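The authors deposited linear, unnormalized probe intensity values, each followed by its detection p-value. Per the labels' protocols RNA was column-purified and treated with DNase, and the submitters' processing notes name GenomeStudio 2011.1. A second table, deposited by the authors, gives log2 values per symbol, whose scaling is not given in full in the sources used here. For 62 members with 1 probe, these values and those used here differed on the linear scale by a median of 20.7 (19.1 to 21.3) on the SOX4 shRNA arrays. The authors' table of fold changes was not used. A column of group means in it is headed with the name of a different hairpin, although its header lists the SOX4 samples, and the group was taken from the sample labels. A pair of intensity columns carry the heading of scrambled replicate 2 and are called 2a and 2b. Per-sample columns left unused numbered 0.

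Normalization used the neqc function of limma 3.58.1 in R 4.3.3 (background from the detection p-values, offset 16, quantile). A probe was kept where its detection p was below 0.01 on 3 or more of the 6 arrays. This left 15717 of 47322 (33.2%), including 108 member probes. Each symbol was represented by its brightest probe, giving 12451 rows, 12069 with a symbol. All 94 member symbols matched RefSeq. Differences were fitted with lmFit and eBayes (intensity trend on) and Benjamini-Hochberg adjusted over all rows, threshold 0.05, after a test on simulated data. Where a probe was fitted beside the others of its gene, each probe was its own row. Intervals are at 95%. The number of arrays limits the precision.

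The members and lists were chosen with earlier results of these data known. Members named with values on every array are C15orf48 and NDUFA4, up to 3 higher and 3 lower per complex among those called, complex II and CYCS, with isoform sets and up to 3 genes each way per further list. NDUFV2, UQCRFS1, UQCRC2 and ATP5I were given in detail after their values were seen. The subdivision of complex I was also added then. Alternatives are listed in the closing section. Plots were made in Python 3.11.15 with matplotlib 3.10.9.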

Additional observations from a re-analysis of the deposited data

How the results depend on the processing

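C15orf48 stayed higher with SOX4 shRNA and past the threshold in every alternative run, between 1.83 and 2.46, and between 2.31 and 2.39 with 1 array left out. NDUFA4 stayed uncalled throughout, between -0.11 and -0.07, and between -0.11 and -0.06 with 1 array left out. The shift of C15orf48 against NDUFA4 was 2.41 to 2.49 with 1 array left out, 2.16 without background correction, 1.92 with the mean of a gene's probes and 2.55 in the authors' values. No called member turned its direction, and CYCS, never called, did so without SOX4 shRNA replicate 1 (-0.10) and without scrambled replicate 2a (-0.03), its range with 1 array left out being -0.10 to 0.11.

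The counts of called members are less firm. Without the intensity trend 5 were higher and 5 lower (11.9%, against 23.2% of all rows), with 3 called in complex I, 0 in III, 3 in IV and 1 in V, and the further lists gave 7 higher and 14 lower. Without the detection filter 9 were higher, with 3 in complex IV and 2 in V, and 9 higher on the further lists. Aligned array medians gave 3 called in complex II and 3 in III, and 24 higher and 14 lower on the further lists. Complex III had 0 called with the mean of probes and in the authors' values, which gave 3 in complex IV. With 1 array left out, 9 to 13 members were higher and 8 to 10 lower (9 higher without SOX4 shRNA replicate 1 or without scrambled replicate 1), with 8 to 10 called in complex I, 1 to 2 in II, 1 in III, 3 to 4 in IV and 1 to 4 in V. The further lists then gave 8 to 13 higher and 16 to 18 lower, and all rows 1581 to 1659 higher and 1563 to 1661 lower.

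Replicate numbers were carried in full by the authors' table alone. There, each gene's mean within its group was first subtracted. What remained on same-numbered arrays of the groups correlated at 0.02, -0.001 and -0.02 across 12067 genes. With 3 arrays per group, this cannot show whether same-numbered arrays share a batch. The replicate block gave 16 of 84 members called (19.0%, against 22.1% of all rows), where 19 were called without it (22.6%, against 23.6% of all rows), with 6 lower, 0 in complex III, 3 in IV and 2 in V. The cause of these shifts was not tested. Dim probes (CYCS, COX7B2, COQ4) limit what can be seen, and a block on slides could not be run, no slide being named.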
